A study of Mus musculus with 6 samples.

Results

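The expression of 9 genes that make, bind or break down retinoic acid (RA) was followed in RA-treated cells labelled as mouse bone marrow mesenchymal stem cells (BMSCs). The 9 genes were Cyp26a1, Cyp26b1, Dhrs3, Rdh10, Crabp1, Crabp2, Stra6, Aldh1a1 and Aldh1a2, chosen by name from the 25722 genes counted. Each was found once in the count table of every library. BMSCs were the adherent cells of C57BL/6 mouse bone marrow, used at an early passage. Control BMSCs received the solvent DMSO (3 libraries) and RA-treated BMSCs received all-trans RA (3 libraries). The sample labels give 1 µM RA for 48 hours, whereas the methods of the study give 100 nM for 24 hours for its RNA sequencing, so the dose and time behind these values are not settled. All 6 libraries came from cells kept in 5% O2, 5% CO2, 20% fetal bovine serum and 10 µM of a ROCK inhibitor. The labels speak of 2 biological replicates although each group holds 3 libraries, and p-values here measure only the spread between libraries, part of which may be technical.

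RA is made from vitamin A (retinol) in 2 oxidation steps. Retinol enters some cells through the STRA6 receptor, RDH10 oxidizes it to retinaldehyde, DHRS3 reduces retinaldehyde back to retinol, and the ALDH1A enzymes oxidize retinaldehyde to RA. Inside the cell RA is bound by the CRABP proteins, acts on the nuclear RA receptors, and is broken down by the cytochrome P450 enzymes CYP26A1 and CYP26B1. In many tissues RA raises the transcription of genes that remove it, which forms a well-known negative feedback loop.

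The libraries held 14737636 to 18511905 counts, and 3 counts corresponded to 0.160 to 0.210 CPM, the count scaled to a common library size. On the first principal component, which held 57.2% of the variance of the 1000 most variable genes, control 2, RA 1 and RA 2 (library set 1) lay on one side and control 1, control 3 and RA 3 (library set 2) on the other. The labels name no batch for this split, and each set holds both treatments, so the differences of the 9 genes are also given within the sets, except for Crabp1, which had at most 1 count per library. All 10 macrophage markers listed were expressed, with summed levels of 15649.5 to 18588 CPM in the control and 16660.4 to 17971 CPM in the RA-treated libraries, and none passed the test in either fit. The 12 mesenchymal stromal markers summed to 1939.8 to 3786 CPM in the control and 1453 to 2911 CPM in the RA-treated libraries. Within set 1 this sum was 3786 CPM in control 2 and 2911 and 1893 CPM in RA 1 and RA 2. Within set 2 it was 1939.8 and 2098 CPM in control 1 and control 3 and 1453 CPM in RA 3. The mesenchymal sum was thus lower after RA within both sets, and the macrophage sum only within set 1. Per kilobase of exon, the macrophage markers summed higher than the mesenchymal markers in every library (7016 to 9947 against 195.0 to 493.4 CPM per kb), so the name BMSCs follows the labels and does not describe a pure population. Within both sets, 4 of the 12 mesenchymal markers (Col1a1, Col1a2, Kitl and Ly6a) were lower in every RA-treated library than in any control library, 3 (Cxcl12, Lepr and Pdgfra) were higher, and 5 were neither. Of the macrophage markers, 1 was lower, 3 were higher and 6 were neither. The share of all genes that meets this rule within both sets was not computed, so nothing is read from these marker counts. With the library set in the fit, 2 of the 10 mesenchymal markers tested were called, where 0.744% of all genes tested were called higher and 0.795% lower. These were Lepr, the leptin receptor (0.479 to 0.490 CPM in control, 2.50 to 9.48 CPM after RA), which passed the filter on low counts only through the RA-treated libraries, and Ly6a, the Sca-1 antigen (34.1 to 39.5 and 17.9 to 20.3 CPM). Both calls were lost without control 1, control 3 or RA 3, and that of Ly6a also without control 2 (edgeR adjusted p from 0.0763 to 0.104 for Lepr and from 0.0955 to 0.118 for Ly6a). The B cell, T cell and erythroid markers in the tables had at most 3 counts in any library. Endothelial markers (3 genes) summed to 6.17 to 15.97 CPM in control and 9.28 to 16.6 CPM after RA, adipocyte markers (3 genes) to 3.56 to 8.11 and 3.72 to 7.98 CPM, and neutrophil markers (2 genes) to 2.13 to 2.73 and 1.52 to 2.46 CPM, with overlapping ranges. In bulk RNA, a change in the number of cells of a type cannot be told apart from a change of RNA per cell, and the part of cell composition in the results was not tested.

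Among the 9 genes, the breakdown enzymes had the largest ratios of means between RA-treated and control BMSCs. The place of Cyp26a1 above Stra6 rests on few control counts, and the counting intervals of their ratios overlap (7.95 to 49.8 and 3.02 to 106.0). Cyp26b1 (ENSMUSG00000063415; GRCm38 chromosome 6, 84571414 to 84593908, minus strand) encodes the CYP26 enzyme with the higher expression in these cells. It was counted 71, 112 and 68 times in control 1 to 3 and 2225, 1729 and 1277 times in RA 1 to 3. These counts equal 5.20 ± 0.670 CPM in control and 106.8 ± 18.4 CPM in RA-treated BMSCs (SD, n = 3 each), a 20.5-fold increase. The lowest RA-treated library lay far above the highest control. The log2 fold change was 4.35 (SE 0.19, edgeR quasi-likelihood adjusted p = 0.00207), and 4.23 (SE 0.11, edgeR adjusted p = 9.14e-06) once the library set entered as a covariate. The difference of mean log2 CPM was 4.26 within set 1 and 4.14 within set 2. Without control 1 the fit on the remaining 5 libraries gave 4.32, but the edgeR adjusted p rose to 0.0548. With the library set in the fit Cyp26b1 passed the test whichever library was left out.

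Cyp26a1 (ENSMUSG00000024987; chromosome 19, 37697798 to 37701536, plus strand), the other RA hydroxylase of the list, moved the same way at a much lower level. It had 2, 0 and 4 counts in control 1 to 3, and 32, 26 and 48 counts in RA 1 to 3. The groups did not overlap. The 106 counts in RA-treated BMSCs against 6 in control gave a ratio of 17.9 at equal depth, with an exact 95% interval of 7.95 to 49.8 that covers counting error only. Its fitted log2 fold change of 4.03 (SE 0.76) did not pass the test over all genes (edgeR adjusted p = 0.294, unadjusted p = 0.00127). With the library set in the fit it was 4.42 (SE 0.54, edgeR adjusted p = 0.0114). This call was lost without control 1, control 3 or RA 3 (adjusted p = 0.113, 0.0651 and 0.0572), where the log2 fold change was 4.35, 5.19 and 7.81. Leaving out each library in turn gave 3.94 (without control 2) to 7.81 in that fit, and 3.38 to 5.00 in the fit without a covariate. In set 1 the only control library had 0 counts, so the level after RA was at least 10.7-fold higher, against a floor of 3 counts in that library. Within set 2 the difference of mean log2 CPM was 3.38. The gene passed the filter on low counts only through the RA-treated libraries, where it is high.

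**Figure D1:**
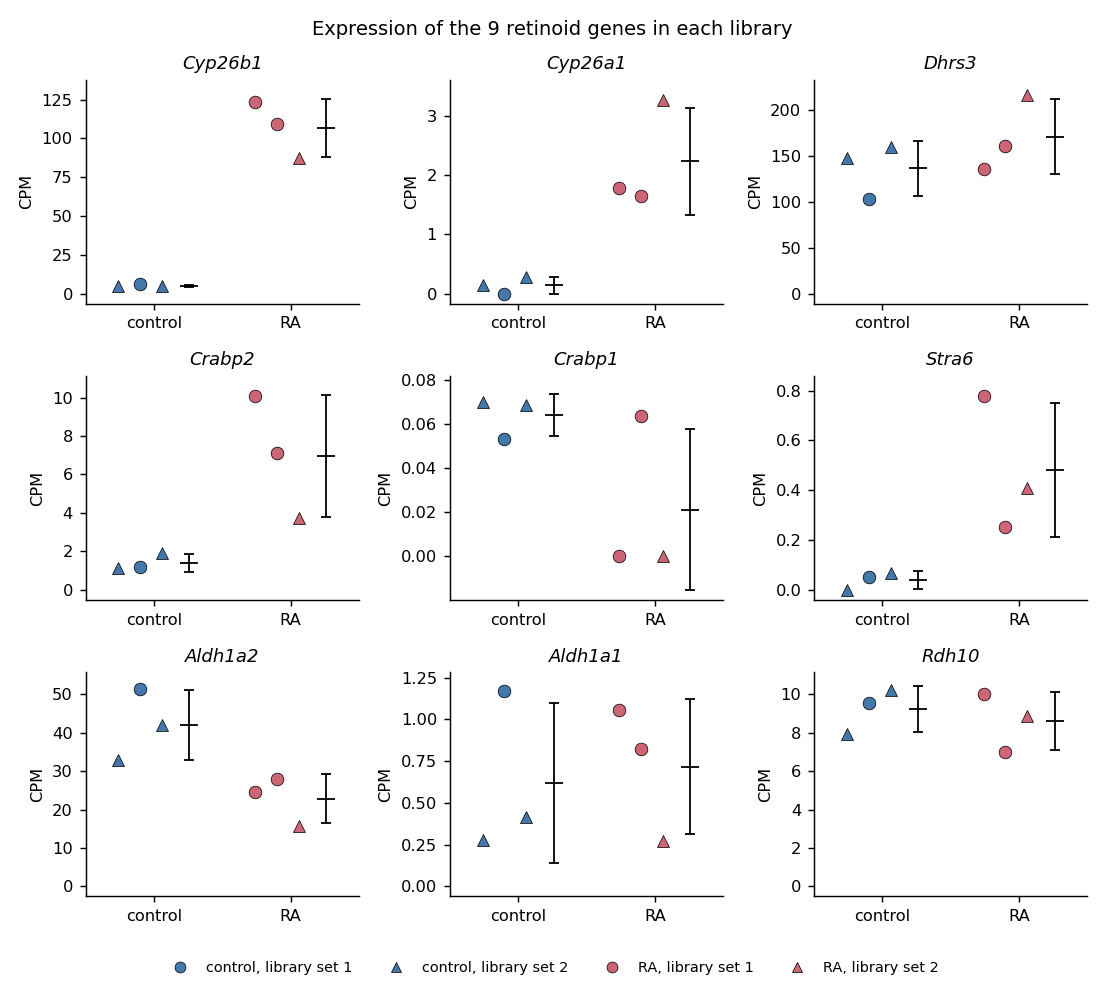
Level of each of the 9 genes in CPM (y axes start near 0 and differ between panels) in the 3 control and 3 RA-treated libraries, with circles for library set 1 and triangles for set 2. Horizontal marks and bars are mean ± SD; an SD bar under 0 for Crabp1 reflects values from 0 or 1 count. Cyp26b1, Cyp26a1, Crabp2 and Stra6 separate upward in all 3 RA-treated libraries, and Aldh1a2 separates downward.

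RA receptors bind as heterodimers to direct repeats of a 6-letter motif, and such a repeat near the Cyp26a1 start is a textbook RA response element. Sequence upstream of Cyp26a1 and Cyp26b1 is shown so that the promoters of the breakdown genes can be compared. It was taken from the RefSeq promoter table (GRCm38.p6) and ends where the annotated exon begins. Capitals mark a direct repeat.
Cyp26a1, chr19:37697558-37697797, plus strand: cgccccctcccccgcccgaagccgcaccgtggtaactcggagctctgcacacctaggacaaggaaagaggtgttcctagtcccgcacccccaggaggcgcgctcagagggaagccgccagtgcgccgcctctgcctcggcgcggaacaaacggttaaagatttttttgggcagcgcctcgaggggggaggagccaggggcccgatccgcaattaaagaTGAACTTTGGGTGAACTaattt
Cyp26b1, chr6:84593909-84594060, minus strand: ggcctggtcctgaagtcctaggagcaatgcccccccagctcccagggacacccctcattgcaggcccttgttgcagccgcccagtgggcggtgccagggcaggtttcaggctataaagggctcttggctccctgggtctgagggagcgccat
Direct repeats made of the consensus AGGTCA, the variant AGTTCA, the variant GGGTCA or the variant GGTTCA, in any pairing and with spacers of 1, 2 or 5 bases, were searched on both strands, from 250 bases before to 50 bases after each start. The Cyp26a1 window held 1 repeat, with a 5-base spacer, on the strand opposite to the gene, beginning 32 bases before the RefSeq start. The Cyp26b1 window held none. Of 32851 promoter windows in the table, 0.0974% held a repeat with a 5-base spacer and 0.588% held any of these repeats. Among the 9 genes, 7 had a window (13 windows in all), and only the one of Cyp26a1 held a repeat. Overlapping repeats did not occur in these windows. A match of letters is a description, and its absence says nothing about binding elsewhere.

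**Figure D2:**
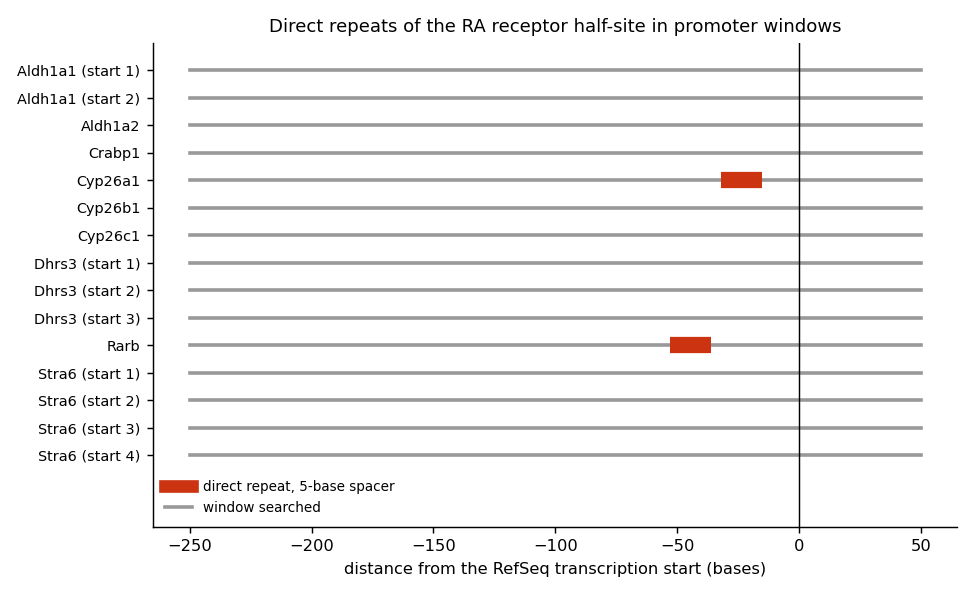
Position of direct repeats (red, 5-base spacer) in the RefSeq promoter windows (grey) of the 7 genes with a window, of Cyp26c1 and of the RA receptor gene Rarb, as distance in bases from the transcription start. Only the windows of Cyp26a1 and Rarb hold a repeat, beginning 32 and 53 bases before the start.

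Cyp26b1 supplied most of the CYP26 transcripts. Per kilobase of exon, it made up 86.3% to 100% of the summed level of the 3 Cyp26 genes in control and 90.6% to 96.3% in RA-treated libraries. Cyp26c1, the remaining gene of the family, lies 4.4 kb from Cyp26a1 on the same strand. It had 0 counts in every control library and 0, 1 and 1 counts in RA 1 to 3, so no difference was detectable at this depth.

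Of the genes of the RA-binding proteins, Crabp2 was detected in every library and Crabp1 hardly at all. Crabp2 (ENSMUSG00000004885; chromosome 3, 87948666 to 87953376, plus strand), which carries RA to its receptors, had 16, 22 and 28 counts in control 1 to 3 and 181, 112 and 55 counts in RA 1 to 3. Its level was 1.41 ± 0.451 CPM in control and 6.97 ± 3.16 CPM after RA (SD, n = 3 each), with every RA-treated library above every control. The 4.96-fold higher mean did not pass the test over all genes, with a log2 fold change of 2.31 (SE 0.43, edgeR adjusted p = 0.294, unadjusted p = 0.00124), nor with the library set in the fit (2.07, SE 0.41, edgeR adjusted p = 0.0618). Leaving out each library of the latter fit gave 1.31 (without control 2) to 2.87 (without RA 3). Crabp2 was then called only without RA 2 (2.13, edgeR adjusted p = 0.00975). DESeq2 on the same genes called it (2.33, adjusted p = 0.000461), as it did Cyp26a1 (4.10, adjusted p = 0.000571).

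Within the sets, the values for Crabp2 were further apart than those for Cyp26b1. Its log2 difference was 2.73 within set 1 and 1.28 within set 2, where RA 3 held the lowest RA-treated level (3.75 CPM) and control 3 the highest control level (1.93 CPM). The test of the difference between the sets gave -1.57 (set 2 minus set 1, SE 0.60), with an unadjusted p of 0.0347 and an edgeR adjusted p of 0.997. For comparison, 3.74% of all genes tested had an unadjusted p under 0.05 in this test and 0 of 13842 passed it after adjustment, so a difference of the response between sets was not shown. The other 6 genes tested had an edgeR adjusted p of 0.997 to 0.998. This fit has 2 residual degrees of freedom and rests on 1 control library in set 1 and 1 RA-treated library in set 2, so it could hardly show a difference and does not show that the sets respond alike.

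Crabp1 (ENSMUSG00000032291; chromosome 9, 54764748 to 54773110, plus strand), the paralog of Crabp2, stayed near 0. It had 1 count in each control library and 0, 1 and 0 counts in RA 1 to 3, which is under the floor of 3 counts in every library and too few to compare. Crabp2 accordingly made up 90.7% to 94.4% of the length-scaled level of both Crabp genes in control and 98.5% to 100% after RA.

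Among the enzymes that make RA, Aldh1a2 was the main transcript and was lower after RA. Aldh1a2 (ENSMUSG00000013584; chromosome 9, 71215789 to 71296243, plus strand), the retinaldehyde dehydrogenase of mesodermal tissues, had 470, 965 and 610 counts in control 1 to 3 and 442, 443 and 230 counts in RA 1 to 3. Relative to depth, these were 32.9, 51.3 and 41.9 CPM in control and 24.6, 28.1 and 15.7 CPM in RA-treated BMSCs. Every RA-treated library was below every control, and the mean was 1.85-fold higher in control (42.1 ± 9.20 against 22.8 ± 6.39 CPM, SD, n = 3 each). The difference did not pass the test over all genes (log2 fold change -0.88, SE 0.26, edgeR adjusted p = 0.721, unadjusted p = 0.0126). It passed with the library set in the fit (-1.10, SE 0.14, edgeR adjusted p = 0.0145), and the log2 difference was -0.96 within set 1 and -1.24 within set 2. The latter call was lost without control 1, control 2, control 3 or RA 3 (adjusted p = 0.0850, 0.110, 0.0651 and 0.106). Of the 12 mesenchymal markers, 4 were lower and 3 were higher after RA within both sets, a count given without the share over all genes. Of these, only Ly6a (lower) and Lepr (higher) were called with the library set in the fit. The part of these markers in the Aldh1a2 result was not tested.

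Aldh1a1 (ENSMUSG00000053279; chromosome 19, 20492715 to 20643465, plus strand), which catalyses the same step, had 4, 22 and 6 counts in control 1 to 3 and 19, 13 and 4 counts in RA 1 to 3. The groups overlapped fully, and the counts followed the library set more than the treatment, with 13 to 22 counts in set 1 and 4 to 6 in set 2. The log2 fold change was 0.18 (SE 0.68, edgeR adjusted p = 0.951) and turned to -0.32 (SE 0.37, adjusted p = 0.688) with the library set in the fit, so no direction can be given. Within set 1 and set 2 the log2 difference was -0.29 and -0.23. Of its 50-base stretches, 3.06% also occur in Aldh1a7, so reads could be split between them. No stretch of the other 8 genes occurs in another gene. Aldh1a2 made up 96.5% to 98.5% of the length-scaled level of Aldh1a1, Aldh1a2, Aldh1a3 and Aldh1a7 in control and 93.7% to 97.4% after RA.

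Neither enzyme that interconverts retinol and retinaldehyde was called. Dhrs3 (ENSMUSG00000066026; chromosome 4, 144892827 to 144928209, plus strand), which returns retinaldehyde to retinol, had 147.5, 102.9 and 160.1 CPM in control 1 to 3 and 136.5, 160.7 and 216.5 CPM in RA 1 to 3. The groups overlapped across the sets, while within each set every RA-treated library was above every control. Pooled over the sets, the log2 fold change was 0.32 (SE 0.23, edgeR adjusted p = 0.799). With the library set in the fit it was 0.51 (SE 0.092, edgeR adjusted p = 0.0442), which is under the 1.5-fold required for a call. The adjusted p rose to 0.242, 0.484, 0.163 and 0.208 without control 1, control 2, control 3 or RA 3. The log2 difference was 0.52 within set 1 and 0.49 within set 2.

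Rdh10 (ENSMUSG00000025921; chromosome 1, 16105774 to 16133734, plus strand), which oxidizes retinol to retinaldehyde, had 113, 180 and 149 counts in control 1 to 3 and 180, 110 and 130 counts in RA 1 to 3. The groups overlapped, at 9.24 ± 1.20 CPM in control and 8.62 ± 1.53 CPM after RA (SD, n = 3 each). The log2 fold change was -0.10 (SE 0.21, edgeR adjusted p = 0.907), and it was -0.10 (SE 0.19, adjusted p = 0.806) with the library set in the fit. Within set 1 and set 2 the log2 difference was -0.19 and -0.02.

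Stra6 (ENSMUSG00000032327; chromosome 9, 58063788 to 58153996, plus strand), the retinol transporter, had 0, 1 and 1 counts in control 1 to 3 and 14, 4 and 6 counts in RA 1 to 3. The groups did not overlap, and the 24 counts after RA against 2 in control gave a ratio of 12.1 at equal depth, with an exact 95% interval of 3.02 to 106.0 for counting error alone. The difference of mean log2 CPM, which the prior count of 2 draws toward 0 at such counts, was 1.71 within set 1 and 1.78 within set 2. Stra6 and Crabp1 were under the filter on low counts and were tested across genes only in the edgeR fit with no filter. There the log2 fold change was 3.31 for Stra6 (edgeR adjusted p = 0.581) and -1.32 for Crabp1 (edgeR adjusted p = 0.758). A two-sided exact permutation test of log2 CPM gave p = 0.1 for Stra6, the smallest that 3 libraries against 3 can give.

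**Figure D3:**
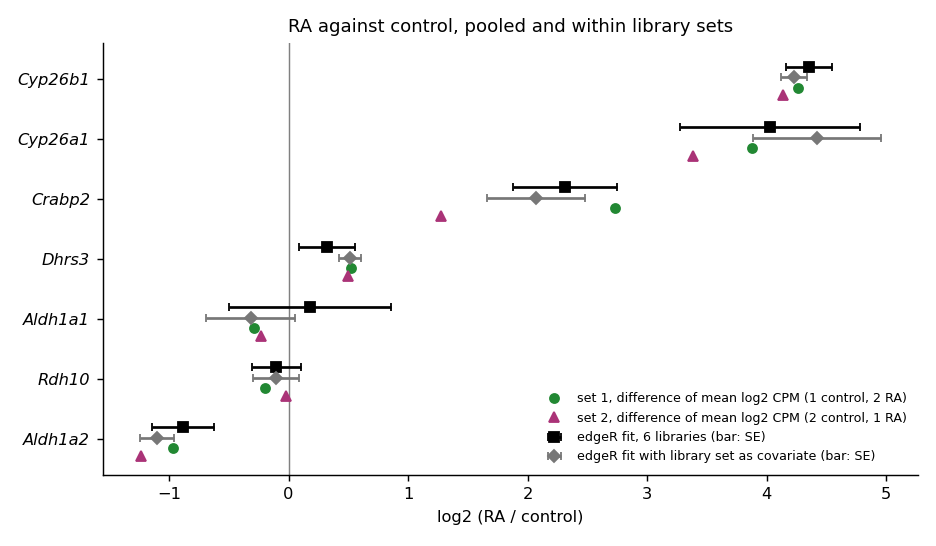
Log2 ratio of RA-treated to control BMSCs (x axis) for the 7 genes tested, from the edgeR fit of all 6 libraries (squares, bar SE), the fit with the library set as covariate (diamonds, bar SE) and the difference of mean log2 CPM with a prior count of 2 within set 1 (circles) and set 2 (triangles). Cyp26b1 lies at 4.14 to 4.35 by each measure, whereas Crabp2 spreads from 1.28 to 2.73; the set 1 point of Cyp26a1 depends on the prior count, since its control library had 0 counts.

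Of the 9 genes, 1 (Cyp26b1) was called higher and 0 lower in the fit without a covariate, at an adjusted p under 0.05 and at least 1.5-fold, where 0.0361% of the 13842 genes tested were called higher and 0.00722% lower. DESeq2 called 3 higher (Cyp26b1, Cyp26a1 and Crabp2) and none of the 9 lower, where it called 0.709% of all genes with an adjusted p higher and 0.275% lower. With the library set in the edgeR fit, 0.744% of all genes tested were called higher and 0.795% lower, and Cyp26b1 was among the former and Aldh1a2 among the latter. These background shares themselves depend on single libraries, since the numbers of genes called ran from 21 higher and 15 lower without control 1 to 197 higher and 223 lower without RA 2. Cyp26a1, called higher by DESeq2 and by edgeR with the library set, had to differ to pass the filter, so nothing is read from its place in these counts and it is left out of the next ones. At an unadjusted edgeR p under 0.05, 3 of the other 6 tested differed (Cyp26b1 and Crabp2 higher, Aldh1a2 lower), against 5.25% of all genes tested in either direction. Of these 6, 2 had every RA-treated library above every control and 1 had every one below, against 5.71% and 6.87% of all genes tested.

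The order of the 9 genes by level per kilobase of exon changed between the groups. In control BMSCs Dhrs3 was highest at 46.8 ± 10.3 CPM per kb (SD, n = 3), followed by Aldh1a2 at 18.6 ± 4.06 and Rdh10 at 2.22 ± 0.288 CPM per kb. Crabp2 (1.06 ± 0.341 CPM per kb) and Cyp26b1 (0.972 ± 0.125) came next with overlapping ranges, and Aldh1a1, Crabp1, Cyp26a1 and Stra6 each had a mean of at most 0.126 CPM per kb, each overlapping the next. In RA-treated BMSCs Dhrs3 remained first (58.5 ± 14.0 CPM per kb), and Cyp26b1 stood second at 20.0 ± 3.45 CPM per kb, above Aldh1a2 at 10.1 ± 2.82 in every library. Aldh1a2 overlapped Crabp2 (5.27 ± 2.39 CPM per kb), and Rdh10 (2.07 ± 0.368) and Cyp26a1 (1.13 ± 0.456) followed without overlap. Aldh1a1, Stra6 and Crabp1 were lowest, at most 0.145 CPM per kb, with each range overlapping the next.

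**Figure D4:**
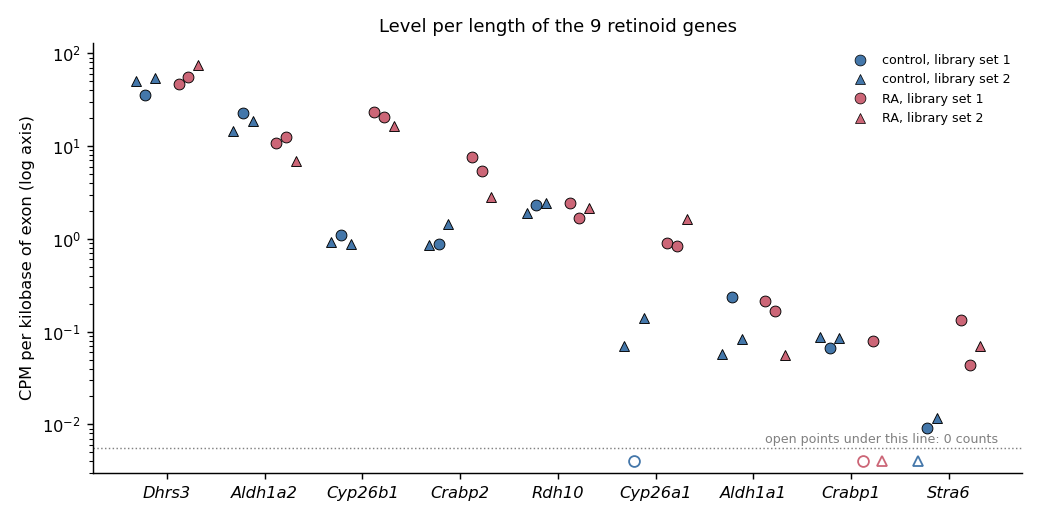
Level of the 9 genes in CPM per kilobase of exon (log axis) in each library, blue for control and red for RA, circles for library set 1 and triangles for set 2; open points mark 0 counts. Cyp26b1 moves from a mean of 0.972 to 20.0 CPM per kb, past Aldh1a2, which moves from 18.6 to 10.1 CPM per kb.

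Of 51 other genes of the retinoid pathway considered here, 45 were in the tables and 27 passed the filter on low counts. None was called by edgeR in the fit without a covariate, whereas DESeq2 (0.709% of all genes higher, 0.275% lower) called 1 (Rarb) higher and 0 lower, as did edgeR with the library set in the fit (0.744% and 0.795%). Rarb had to differ to pass the filter, so nothing is read from this count. The median log2 fold change of the 27 was 0.0093, beside -0.02 for all genes tested, with 14 above 0 and 13 below. The 11 other retinol and retinaldehyde enzymes tested had log2 fold changes of -0.19 to 0.24, and none was called in either fit.

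Rarb, an RA receptor and a classical RA target, had 4, 13 and 2 counts in control 1 to 3 and 127, 94 and 66 counts in RA 1 to 3. Control and RA-treated libraries did not overlap, at 0.370 ± 0.288 and 5.84 ± 1.28 CPM (SD, n = 3 each). In the fit without a covariate the log2 difference was 3.90 (SE 0.51, edgeR adjusted p = 0.156), and with the library set in the fit it was 3.70 (edgeR adjusted p = 0.00387). This call was lost without control 1 (adjusted p = 0.0530). DESeq2 without a covariate gave 3.93 (adjusted p = 1.46e-09). Within set 1 and set 2 the difference of mean log2 CPM was 3.02 and 3.83. Like Cyp26a1, Rarb passed the filter on low counts only through the RA-treated libraries. Its RefSeq promoter window held the other direct repeat with a 5-base spacer, on its own strand (chr14:16575513-16575529, minus strand).
Rarb repeat: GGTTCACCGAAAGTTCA

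The 3 listed genes with the highest level per kilobase were the lipid scavenger receptor Cd36 (206.2 CPM per kb over the 6 libraries), the lipoprotein receptor Lrp1 (172.1) and the lipoprotein lipase Lpl (134.1). In control the mean of Lrp1 (185.7 CPM per kb) was above that of Cd36 (170.0), with overlapping ranges. After RA, Cd36 (242.4) was above Lrp1 (158.6). Cd36 had 610.4 ± 78.0 CPM in control and 870.2 ± 40.0 CPM after RA (SD, n = 3 each) without overlap. It did not pass the edgeR test (log2 fold change 0.51, edgeR adjusted p = 0.638, and 0.55, adjusted p = 0.0645, with the library set). DESeq2 gave 0.52 (adjusted p = 0.0497), under the 1.5-fold required for a call. With the library set, the edgeR adjusted p fell to 0.00709 without RA 2 (0.51) and stayed above 0.05 without any other library. The log2 fold change was -0.23 for Lrp1 (edgeR adjusted p = 0.807) and 0.0093 for Lpl (adjusted p = 0.991). Rara, the RA receptor of broad expression, lay lower after RA without overlap (17.8 ± 2.80 against 12.4 ± 0.857 CPM, SD, n = 3 each) and did not pass the test (-0.52, edgeR adjusted p = 0.795).

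**Figure D5:**
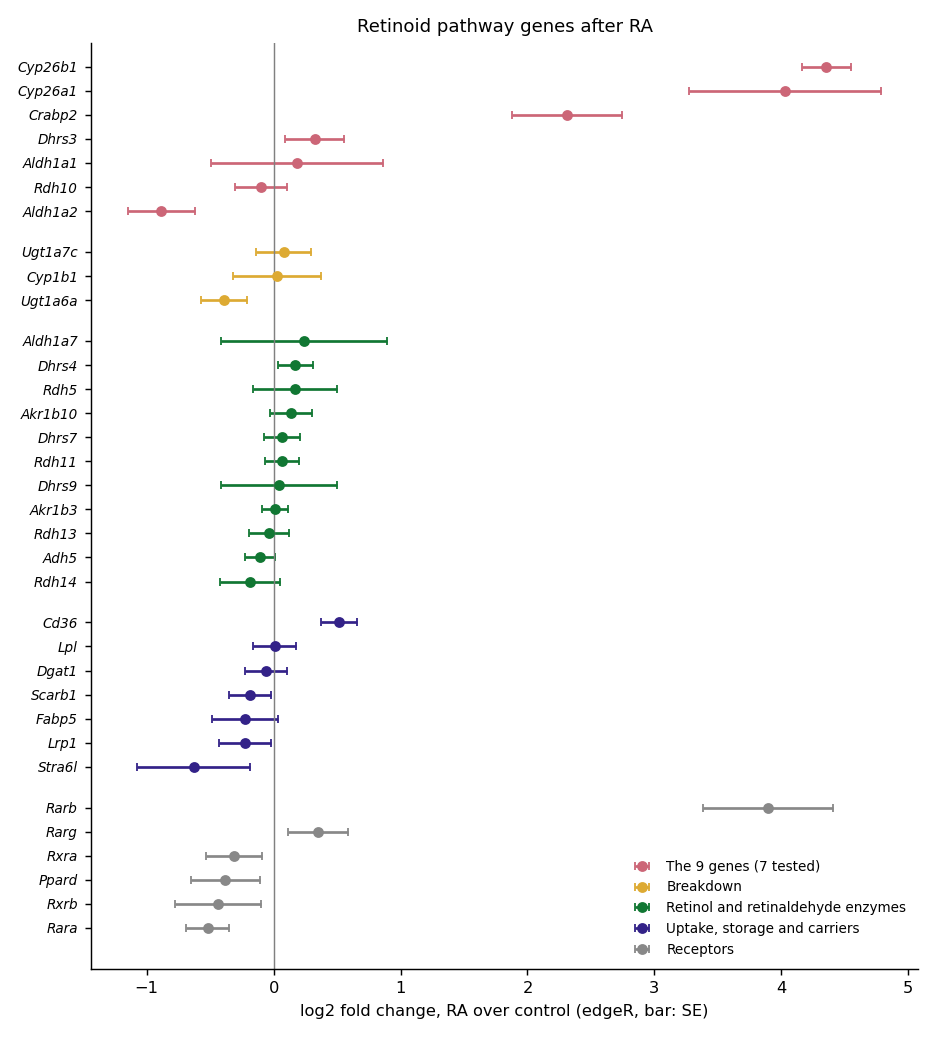
Log2 fold change of RA-treated over control BMSCs (x axis, edgeR fit of all 6 libraries, bar SE) for the 7 of the 9 genes that were tested and the 27 other pathway genes tested, coloured by role. Cyp26b1 (4.35), Cyp26a1 (4.03), Rarb (3.90) and Crabp2 (2.31) lie to the right, and most others lie near 0; of all genes drawn only Cyp26b1 was called in this fit.

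The genes whose level followed that of Cyp26b1 most closely across the 6 libraries were Piezo2 (Pearson r = 0.995), Snap91 (0.995), Prss35 (0.995), Sept6 (0.993) and Adarb1 (0.991), by log2 CPM over all genes tested. These correlations are a description, since the 6 libraries share the treatment contrast. Snap91 (5, 9 and 7 counts in control 1 to 3, and 62, 55 and 39 in RA 1 to 3) passed the filter on low counts only through the RA-treated libraries. Piezo2, a mechanosensitive ion channel, had 68, 80 and 69 counts in control 1 to 3 and 379, 321 and 260 counts in RA 1 to 3. Prss35, a serine protease homologue, had 54, 82 and 47 counts in control and 578, 463 and 286 counts after RA.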

How the data were processed

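RNA of BMSCs was sequenced in 3 control and 3 RA-treated libraries with a library kit not stated to keep strand. The authors deposited raw read counts per gene, 1 table per library; their processing notes name Bowtie2 2.2.3 and the mm10 build, and the counting program is not given in the sources used here. Of 25722 identifiers, 25706 were in GENCODE M21, and 24 symbols turned into dates were restored. Genes kept by filterByExpr (13842) were tested with edgeR 4.0.16 (R 4.3.3, limma 3.58.1; TMM, quasi-likelihood F test, Benjamini-Hochberg adjustment over all genes tested), calling at an adjusted p under 0.05 and at least 1.5-fold. CPM used the library sizes of the tested genes scaled by their TMM factors (0.969 to 1.038). Log2 CPM for set values, permutation tests and correlations used a prior count of 2. Count ratios carry exact Poisson intervals. DESeq2 1.42.0, other scalings, filters and fold thresholds, a replicate block, a library set covariate and leaving out each library were alternatives. The edgeR script was tested on simulated data with 200 changed genes. The 9 genes, the other lists, the library sets and the named genes (all 9, every called pathway gene, the 3 highest pathway genes, and the 5 most like Cyp26b1) were chosen with earlier results of these data known. A pathway gene of the list first drawn up is not reported here. Rara, Cyp26c1 and the mesenchymal markers in the text were named after their values were seen. The smallest two-sided permutation p for 3 against 3 libraries is 0.1.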

Additional observations from a re-analysis of the deposited data

How the results depend on the processing

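Of the 9 genes, 1 was called higher and 0 lower in the fit without a covariate. DESeq2 called 3 higher, the library set covariate 2 higher and 1 lower, and leaving out 1 library 0 to 1 higher (0 without control 1). Over all genes, 5 were called higher and 1 lower. These counts became 98 and 38 with DESeq2, 17 and 3 with no filter on low counts, 103 and 110 with the library set covariate, and 0 to 6 higher and 0 lower when leaving out each library in turn (0 higher without control 1, 6 without RA 3). Scaling by library size alone and the replicate block gave 0 lower. The replicate block is no true pairing, since the deviations of same-numbered libraries correlated at -0.510, 0.343 and 0.572; under it Cyp26b1 kept a log2 fold change of 4.35 (edgeR adjusted p = 0.00551), and no call among the 9 genes changed. Leaving libraries out of the fit with the library set, added after the data were seen, left 1 to 4 of the 9 genes called (3 with all libraries; 1 without control 1, control 3 or RA 3). Over all genes that fit then called 21 and 15 (higher and lower) without control 1, 39 and 16 without control 2, 31 and 19 without control 3, 91 and 101 without RA 1, 197 and 223 without RA 2, and 33 and 29 without RA 3. The direction turned for Rdh10 without RA 2 (log2 fold change 0.030; range -0.20 to 0.030 on leaving out each library) and for Aldh1a1 with the library set (-0.32) and without control 1 (-0.15), control 3 (-0.037) or RA 1 (-0.18; range -0.18 to 1.07), and for none of the other 5 genes tested. Cyp26a1 and Aldh1a1 could not be fitted with at least 10 counts in every library. The cause of these changes was not tested. Depth limits Cyp26a1, Aldh1a1, Stra6, Crabp1 and Cyp26c1, which have few counts. No scaling moved the median of all genes by more than 0.1 on the log2 scale.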
